A study of Mus musculus with 8 samples.

Results

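The Gimap cluster holds the genes of a small family of GTPases that lie side by side on mouse chromosome 6. Its 8 members, Gimap8, Gimap9, Gimap4, Gimap6, Gimap7, Gimap1, Gimap5 and Gimap3 in the order of the chromosome, were taken from the gene annotation by name, as 8 of 21755 protein-coding genes on the autosomes and X. The cluster was taken as the stretch from 5 kb before the first gene body to 5 kb after the last, chr6:48642234-48775851 on GRCm38 (mm10), which is 133618 bases long. The rule used names and positions and no measured value, although the family was picked with earlier results of these data known. DNA methylation had been recorded by whole genome oxidative bisulfite sequencing, an assay in which the oxidation step lets 5-methylcytosine (5mC) be read apart from 5-hydroxymethylcytosine, in cells from the spleens of C57BL/6J mice aged 6 to 8 weeks. The 4 groups were resting CD43- B cells of females, the same cells of males, naive CD4+ T cells of females and those of males. All mice were untreated and of one inbred strain, and per the study's methods each sample pooled the cells of several mice. Each group has 2 samples and 1 file that may hold 1 or both of them, so that 4 libraries were compared with no replicate within a group. The spread between libraries left in the main tests lay in how B and T cells differed in the 2 sexes.

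GIMAP proteins (GTPases of immunity-associated proteins) share a GTP-binding domain and are found mainly in lymphocytes, where members are known for their part in the survival and death of T and B cells. A CpG is a cytosine followed by a guanine, the usual place of 5mC in mammals. CpGs at active promoters and enhancers are as a rule unmethylated, while most other CpGs of the genome, those inside transcribed genes included, are methylated. A level below is the share of reads that were methylated, summed over the CpGs listed in all 4 libraries. A level between the extremes in a sorted population does not tell whether part of the cells or part of the alleles of each cell carry the mark. Where 4 levels are given in a row they stand for B and T cells of females, then B and T cells of males.

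The 4 libraries held 280919817 to 354634149 reads at CpGs, with medians of 14 to 17 reads per listed autosomal CpG. In the cluster 1090 of 1174 reference CpGs (92.8%) were listed in all 4 libraries, with medians of 14 to 16 reads, and 1009 of these lay in the gene windows of the members (each gene body with 5 kb on either side). The 95% Wilson intervals of the members' levels reached at most 2.70 points to either side in gene windows, 4.49 points in gene bodies and 6.69 points in promoters. These intervals cover counting error alone. The cell type labels were checked on marker promoters. All 6 of 6 B cell marker promoters were called less methylated in B cells (among them Ms4a1 and Cd79a), and 9 of 9 T cell marker promoters less methylated in T cells (among them Cd3e and Cd4). Of 8 promoters of other cells' markers (CD8 T, NK and myeloid cells), 3 were called, namely Cd8b1 (60.6 points higher in B cells), Cd8a (28.8) and Nkg7 (21.9), and the other 5 lay between -16.8 and 13.0 points. In the T cell libraries their levels were 29.2% to 29.7% (Cd8b1), 56.1% to 57.2% (Cd8a) and 32.7% to 33.1% (Nkg7). Their part in the results at the cluster was not tested. Mitochondrial CpGs, read as a background, were methylated in 0.271%, 0.0733%, 0.727% and 0.0709% of reads, so both B cell libraries were above both T cell libraries, and its part in the small differences at low promoters was not tested.

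Across the whole cluster 5mC was lower in T cells than in B cells of both sexes. The level over its 1090 CpGs was 66.4% in B cells and 44.3% in T cells of females, and 68.0% in B cells and 42.7% in T cells of males. The B minus T difference, taken throughout as the mean of the 2 B cell libraries minus that of the 2 T cell libraries, was 23.8 percentage points. Both T cell libraries were thus below both B cell libraries, and the sexes of a cell type differed by less than 2 points. The flanks of the cluster did not show a difference of this size. In the 50 kb before the cluster the levels were 63.1%, 61.6%, 62.7% and 62.5%, a difference of 0.82 points. In the 50 kb after it they were 85.9%, 88.2%, 85.5% and 87.9%, a difference of -2.35 points. Over chromosome 6 as a whole the difference was 1.95 points. Within the cluster the difference was 35.2 points at intronic CpGs, 29.1 points at exonic CpGs and 16.2 points at CpGs between genes.

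**Figure D1:**
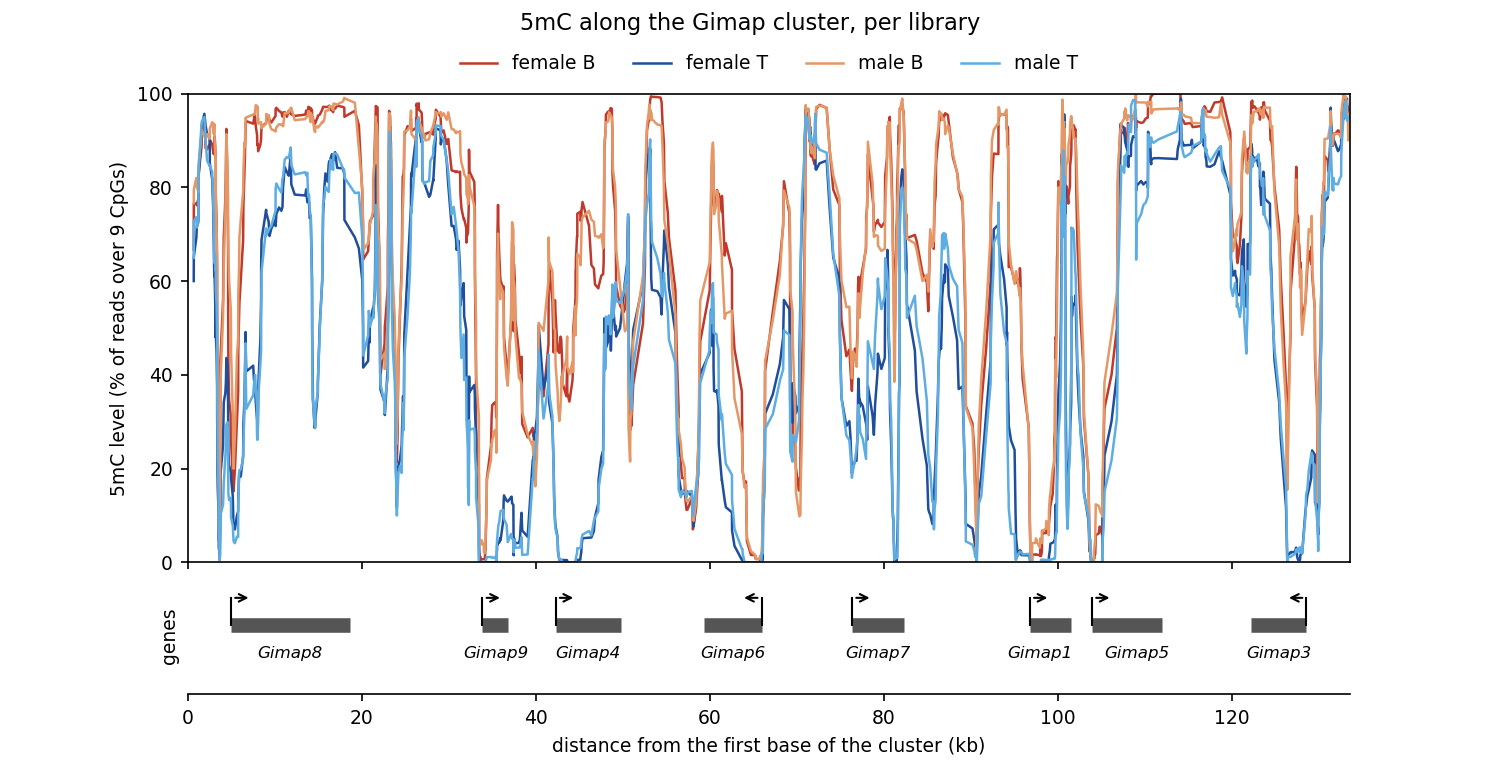
Level of 5mC (% of reads, over 9 consecutive CpGs) in each of the 4 libraries against the distance from the first base of the cluster in kb, with gene bodies as bars and arrows at the gene starts. The B cell lines lie above the T cell lines over most of the cluster, with a difference of 23.8 points over all CpGs, and all 4 lines are low at the starts of Gimap6, Gimap1 and Gimap5, while at those of Gimap4 and Gimap3 the B cell lines stay above the T cell lines.

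The 5 nearest protein-coding genes on either side were read the same way, to see whether the difference reached beyond the family. None of these 10 gene windows was called between B and T cells by the quasi-likelihood test of edgeR, beside 133 of all 21553 gene windows. A call needed an adjusted p under 0.05 over all gene windows together with a difference of at least 20 points. None of the 10 had an unadjusted p under 0.05 either, beside 9343 of all 21553 gene windows that did. The smallest was that of AI854703 (edgeR, unadjusted p = 0.0507), with B above T cells in both sexes. Windows of neighbouring genes overlap on both sides, so the 10 are not separate readings. On the side of Gimap8 the differences of AI854703, Zfp775, Gm44965, Gm45021 and Repin1 lay between -2.45 and 3.69 points. On the side of Gimap3 those of Tmem176b, Tmem176a, Aoc1, 1600015I10Rik and Doxl2 lay between -1.42 and 0.57 points. Of the other regions of these genes, the promoter of Repin1 (-2.49 points) and the gene body of Doxl2 (-3.17 points) passed the adjusted p alone, both lower in B cells.

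**Figure D2:**
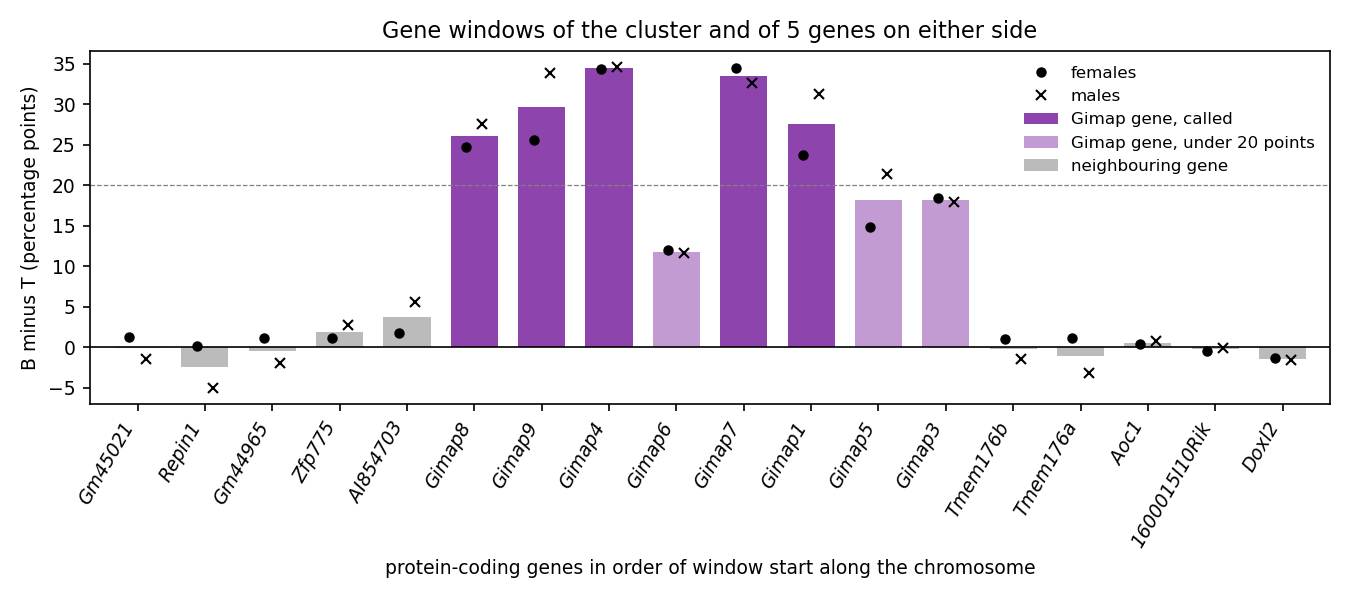
B minus T difference in percentage points for the gene windows of the 8 Gimap genes and of 5 protein-coding genes on either side, in chromosome order. Bars are means, points are females and crosses are males. The neighbours lie between -2.45 and 3.69 points and the Gimap genes between 11.8 and 34.5 points.

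Gene bodies were called more often than promoters or gene windows. Of the 8 Gimap gene bodies, 7 were called higher in B cells, beside 0.979% of all 21139 gene bodies tested, and Gimap5 was the exception. The gene body of Gimap4, a regulator of lymphocyte death, was methylated at 67.4%, 15.8%, 66.3% and 14.6%, a difference of 51.7 points (edgeR, adjusted p = 1.33e-11). By B minus T it was number 12 of all gene bodies. Gimap7 followed with 73.3%, 30.5%, 71.4% and 32.7% (40.8 points). In Gimap9 the body was nearly free of 5mC in T cells, at 38.0%, 1.93%, 37.0% and 2.92% (35.0 points). In Gimap8 the body had 86.8%, 54.3%, 90.2% and 54.6% (34.1 points). The bodies of Gimap3 (34.3 points), Gimap6 (28.5 points) and Gimap1 (26.4 points) were also called. With every CpG weighted equally the difference of Gimap1 was 17.4 points, below the minimum of a call. The body of Gimap5, whose loss shortens the life of T cells, had 62.1%, 54.3%, 67.6% and 52.5%. Its difference of 11.4 points passed the adjusted p (edgeR, 0.00390) but not the minimum of 20 points. In each of the 8 bodies both B cell libraries were above both T cell libraries. Whether the bodies of 2 members differ from each other in this contrast was not tested.

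**Figure D3:**
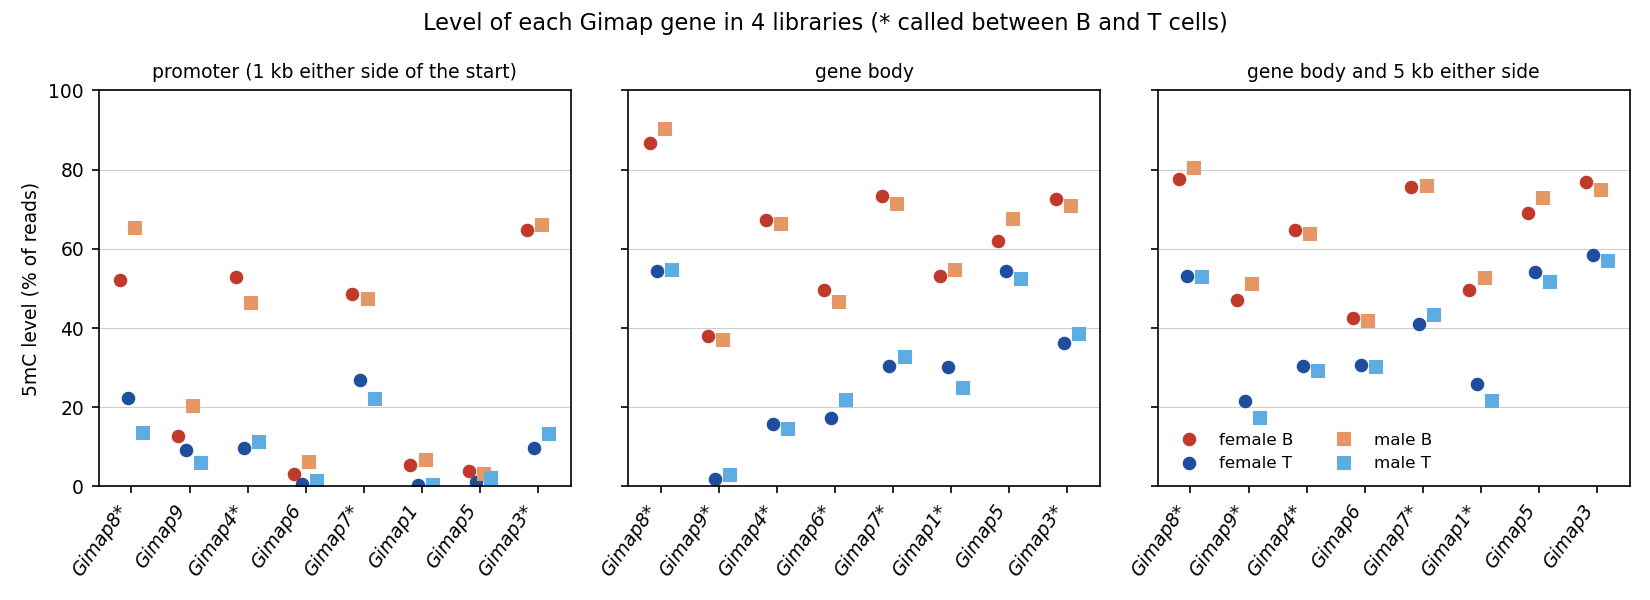
Level of 5mC (% of reads) in the promoter, the gene body and the gene window of each Gimap gene, with 1 point per library and an asterisk at the regions called between B and T cells. The B cell points lie above the T cell points in the 8 gene bodies, and in promoters the levels of Gimap6, Gimap1 and Gimap5 stay under 7% in all 4 libraries.

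Promoters, taken as the 1 kb before and the 1 kb after each start, split the family. Of the 8, 4 were called, all higher in B cells, beside 0.956% of all 20501 promoters tested. The promoter of Gimap3, a close relative of Gimap5, had 64.8% (95% interval 59.6% to 69.7%), 9.70% (7.09% to 13.1%), 66.1% (60.9% to 70.9%) and 13.2% (10.1% to 17.1%), a difference of 54.0 points (edgeR, adjusted p = 5.44e-51). That of Gimap8 had 52.2% (47.1% to 57.3%), 22.2% (18.1% to 27.0%), 65.4% (59.9% to 70.5%) and 13.4% (10.0% to 17.7%), a difference of 41.0 points (edgeR, adjusted p = 7.02e-26). That of Gimap4 had 52.9% (46.1% to 59.5%), 9.65% (6.62% to 13.9%), 46.4% (40.1% to 52.8%) and 11.2% (7.71% to 16.0%), a difference of 39.2 points (edgeR, adjusted p = 5.38e-25). In these 3 promoters the intervals of B and T cells stood well apart. That of Gimap7 had 48.6% (43.2% to 54.0%), 27.0% (22.1% to 32.5%), 47.4% (41.1% to 53.8%) and 22.0% (16.9% to 28.0%), a difference of 23.5 points (edgeR, adjusted p = 1.29e-07), and its intervals of B and T cells did not overlap either, but with every CpG weighted equally the difference was 19.3 points, below the minimum of a call. These calls rested on a spread shared by all promoters. With a library left out a cell type keeps 1 library, so the differences alone are read from these fits. They stayed above 20 points at all 4 promoters. Calls were lost in these fits, at these promoters and over the whole genome. The spread shared by all promoters (the common dispersion) was 0.0107 in the main fit and 0.0386 to 0.0441 in these fits. Its part in the lost calls was not tested.

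The other 4 promoters were low in every library. Gimap1, which mature B and T cells need for their survival, had 5.35%, 0.389%, 6.78% and 0.307%. Gimap6, a partner of the autophagy machinery, had 3.24%, 0.493%, 6.10% and 1.40%. Gimap9 had 12.6%, 9.16%, 20.4% and 5.92%. These differences of 5.71, 3.73 and 8.98 points passed the adjusted p (edgeR, 8.99e-08, 0.00528 and 0.000278), as did 17.7% of all promoters with the higher level in B cells. They did not pass in every fit, and fewer promoters passed over the whole genome too. In either direction 4070 of 20501 promoters passed in the main fit, 609 without a term for sex and 1248 with limma. With a library left out a cell type keeps 1 library, so passing is not read from those fits. Without a term for sex Gimap9 (0.145) and Gimap6 (0.113) did not pass with edgeR, nor did Gimap9 with limma (0.0731). With 500 bases on either side the difference of Gimap1 was 0.21 points (edgeR, adjusted p = 0.528) and that of Gimap9 1.73 points (0.00699), while that of Gimap6 was 4.55 points (0.00554). Gimap5 had 3.82%, 1.01%, 3.01% and 2.23% and did not pass (edgeR, adjusted p = 0.0572).

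Closer to the start the levels were lower in both cell types. Within 250 bases of the 8 gene starts the 54 CpGs were methylated at 3.90% (2.86% to 5.28%), 0.990% (0.539% to 1.81%), 6.81% (5.16% to 8.94%) and 0.741% (0.359% to 1.52%). Of these 54 CpGs, 50 were under 20% in B cells. Between 250 and 1000 bases from the starts the levels of 99 CpGs were 45.2%, 15.4%, 48.5% and 12.6%. Summed over the 8 genes, B and T cells thus differed by 4.49 points at the starts and by 32.9 points further out. An example is Gimap8, with 3.37%, 1.2%, 6.00% and 0.0% at its 4 CpGs within 250 bases and 68.3%, 29.2%, 77.0% and 17.4% beyond. The members were not alike in this. The 4 promoters that were not called hold 39 of the 54 CpGs and differed by 0.21 to 3.37 points within 250 bases. Gimap4 differed by 26.9 points, with 33.8%, 11.4%, 39.7% and 8.43% at the 5 CpGs nearest to its start. Gimap3 differed by 18.6 points, with 15.4%, 0.0%, 21.9% and 0.0% at its 3 nearest CpGs. The 2 distances were set after the levels had been seen, and no test was run on them.

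**Figure D4:**
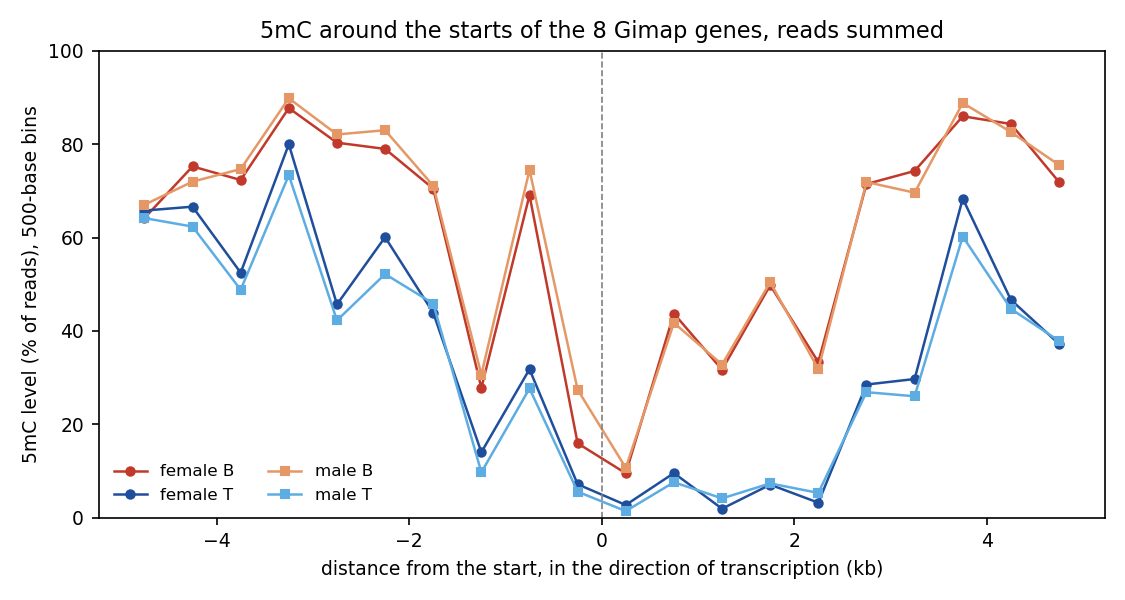
Level of 5mC (% of reads, summed over the 8 Gimap genes in bins of 500 bases) in the 4 libraries against the distance from the gene start in kb, with the gene body to the right of 0. All 4 libraries reach their lowest or near lowest level at the start, at 9.54%, 2.75%, 10.7% and 1.44% in the first 500 bases, and the B cell lines rise away from the T cell lines on both sides.

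The sequences of the 4 called promoters are shown because they hold the few CpGs around the start of these genes. They run from 250 bases before the RefSeq start to 50 after it, on GRCm38 and in the direction of the gene, with each CpG in capitals. The stretches are chr6:48646984-48647283 (Gimap8, plus strand), chr6:48684328-48684627 (Gimap4, plus strand), chr6:48718371-48718670 (Gimap7, plus strand) and chr6:48770802-48771101 (Gimap3, minus strand). The start of Gimap4 lies 29 bases from that of the gene annotation used for the promoters, and the other 3 starts are the same.
Gimap8: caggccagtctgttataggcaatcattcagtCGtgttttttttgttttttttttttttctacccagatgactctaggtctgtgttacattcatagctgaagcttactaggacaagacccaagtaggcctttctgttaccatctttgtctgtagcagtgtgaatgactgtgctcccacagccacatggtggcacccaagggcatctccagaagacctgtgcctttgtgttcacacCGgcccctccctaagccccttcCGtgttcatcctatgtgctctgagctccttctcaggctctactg
Gimap4: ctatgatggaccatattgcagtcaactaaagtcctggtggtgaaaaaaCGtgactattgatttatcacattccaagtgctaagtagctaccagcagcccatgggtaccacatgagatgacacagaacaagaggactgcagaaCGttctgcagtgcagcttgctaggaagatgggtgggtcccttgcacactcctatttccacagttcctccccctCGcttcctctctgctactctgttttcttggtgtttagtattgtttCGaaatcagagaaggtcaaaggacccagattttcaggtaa
Gimap7: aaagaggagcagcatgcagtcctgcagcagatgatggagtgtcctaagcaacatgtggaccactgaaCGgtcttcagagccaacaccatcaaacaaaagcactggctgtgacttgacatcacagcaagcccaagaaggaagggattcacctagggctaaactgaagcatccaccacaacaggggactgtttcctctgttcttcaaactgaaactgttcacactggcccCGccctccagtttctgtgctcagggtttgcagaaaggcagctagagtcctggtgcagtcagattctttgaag
Gimap3: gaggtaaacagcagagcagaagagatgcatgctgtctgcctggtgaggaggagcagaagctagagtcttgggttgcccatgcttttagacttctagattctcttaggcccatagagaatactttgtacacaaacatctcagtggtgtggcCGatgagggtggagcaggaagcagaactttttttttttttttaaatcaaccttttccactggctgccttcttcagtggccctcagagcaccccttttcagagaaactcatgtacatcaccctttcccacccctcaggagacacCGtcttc

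These 300 bases held 3 CpGs in Gimap8, 4 in Gimap4, and 2 each in Gimap7 and Gimap3. The 2 CpGs of Gimap7, at -183 and -22 bases from the start, had no methylated read in 3 of 4 libraries, and 6.45% at the first of them in female B cells. In Gimap8 the CpGs at -16 and 6 bases had no methylated read in B cells. In Gimap3 the CpG at 44 bases had 12.5%, 0.0%, 20% and 0.0%. Gimap4 differed, since its CpG at -202 bases was methylated at 61.5%, 25.0%, 66.7% and 27.3%, and that at -35 bases at 18.2%, 0.0%, 33.3% and 0.0%. These single CpGs rest on 6 to 31 reads per library. Letters read by transcription factors of lymphocytes were looked up on both strands in the same 300 bases of all 8 members. TGTGGT, bound by RUNX factors, was found in Gimap4, Gimap7 and Gimap1 and in 16.8% of all 32851 promoters of the table. GGAAGT, bound by ETS factors, was found in Gimap9, Gimap6, Gimap1 and Gimap5 and in 23.8%. CTTTGA, bound by TCF and LEF factors, was found in Gimap4 and Gimap7 and in 16.0%. A match of letters is a description of this window only.

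Over the gene windows, the widest unit, 5 of 8 members were called higher in B cells, beside 0.599% of all 21553 windows. Gimap4 (34.5 points), Gimap7 (33.5 points), Gimap9 (29.7 points), Gimap1 (27.5 points) and Gimap8 (26.1 points) were called, with edgeR adjusted p-values between 1.04e-09 and 2.76e-08. The windows of Gimap3 (18.2 points), Gimap5 (18.1 points) and Gimap6 (11.8 points) passed the adjusted p but stayed under 20 points. The set of called windows depended on the flank and on the libraries. With 10 kb on either side Gimap8 fell to 19.1 points, Gimap5 rose to 20.1 points and Gimap3 fell to 6.23 points, and without the female B library Gimap5 was called too (20.1 points). By the adjusted p alone 32.8% of all windows were higher in B cells, so a small difference in that direction was common. The windows of Gimap9 and Gimap4, of Gimap4 and Gimap6, and of Gimap1 and Gimap5 overlap, and these members share CpGs there.

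The members are described next in the order of the chromosome, since the position of the difference varied between them. Gimap8 (chr6:48647234-48660875, plus strand) is the longest gene of the family, with 13642 bases. Its exons (85.5%, 53.7%, 90.8% and 55.9%) and introns (87.7%, 54.7%, 89.9% and 53.9%) behaved alike. T cells were lower than this in patches along it. At 8 exonic CpGs within 170 bases, 3080 bases after the start, the levels were 88.7%, 25.3%, 96.1% and 20.8%. At 5 further CpGs 9540 bases after the start they were 92.5%, 19.2%, 93.8% and 10.6%. Another patch lay before the gene, 530 bases from its start, with 94.4%, 36.1%, 87.3% and 21.8% at 5 CpGs.

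Gimap9 (chr6:48676129-48679114, plus strand) is the shortest gene, with 2986 bases. B cells themselves were low there in introns (16.1%, 0.0%, 16.8% and 0.957%) and intermediate in exons (48.4%, 2.73%, 44.9% and 3.78%). The T cell libraries were near 0 over the body as a whole, with 2.35% (females) and 7.37% (males) in its tile chr6:48678001-48679000. The contrast was steepest just behind the gene. At 5 CpGs within 60 bases, 576 bases from its end, the levels were 84.0%, 2.67%, 86.6% and 3.67%, a difference of 82.1 points. In T cells a low stretch, joined from overlapping runs of 5 CpGs under 30%, spanned 7886 bases and 73 CpGs around Gimap9 (33.6%, 7.27%, 36.2% and 5.64%). In B cells 4 separate low stretches lay within it. The T cell stretch was not low throughout. In its tile chr6:48682001-48683000 T cells were above B cells, at 23.6%, 35.1%, 22.5% and 29.9%, which was not called.

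Gimap4 (chr6:48684549-48692060, plus strand) carried the largest difference of any gene body in the family, in introns (59.5%, 9.40%, 56.5% and 7.09%) and in exons (83.8%, 33.2%, 86.0% and 37.7%) alike. T cells had a stretch of 6326 bases with 44 CpGs at 4.36% and 4.24%, from before the start into the gene. B cells had 54.8% and 53.2% there and no low stretch of their own. At 7 CpGs around 2381 bases after the start no read was methylated in female T cells and 0.621% in male T cells, against 75.0% and 63.9% in B cells. The 5 kb behind the gene had 74.1%, 67.8%, 76.6% and 69.2%, a sum over 1-kb tiles whose differences lay between -9.10 and 21.03 points.

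Gimap6 (chr6:48701582-48708225, minus strand) differed in its exons (60.4%, 23.5%, 59.9% and 28.5%) but hardly in its introns (7.41%, 0.629%, 6.25% and 2.86%), where B cells were low as well. Both cell types had a long low stretch over the start, of 4413 bases in B cells and 6468 bases in T cells. The 5 kb before its start had 35.5%, 44.0%, 38.5% and 41.9%, a sum of -5.92 points over tiles of both directions. There 1 tile was called lower in B cells (-32.2 points) and its neighbour was called higher in B cells, with 45.3%, 33.0%, 65.7% and 25.8% (26.1 points, edgeR, adjusted p = 0.00530). With both flanks the window differed by 11.8 points, against 28.5 points for the gene body alone.

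Gimap7 (chr6:48718621-48724636, plus strand), an active GTPase, differed in exons (71.4%, 30.7%, 69.5% and 26.9%) and introns (76.2%, 30.3%, 73.8% and 39.9%), and in the 5 kb behind it (80.6%, 37.5%, 82.0% and 42.4%). In the 5 kb before it the summed levels were 74.2%, 69.6%, 79.4% and 71.1%. The steepest contrast was exonic. At 9 CpGs, 5204 bases after the start, the levels were 80.3%, 2.78%, 75.8% and 1.00%. A low stretch of T cells alone, with 12 CpGs over 1270 bases, lay 2579 bases behind the gene (72.6%, 17.1%, 75.0% and 15.8%).

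Gimap1 (chr6:48739054-48743795, plus strand) had its start in a low stretch that both cell types shared, of 4003 bases in B cells (9.08%, 0.885%, 9.76% and 0.376% at 46 CpGs) and of 6178 bases in T cells. The antisense gene Gimap1os is annotated there. Its introns were low in T cells (19.3%, 2.90%, 16.6% and 1.55%) and its exons differed (66.0%, 44.6%, 68.9% and 36.2%). The larger difference lay before the gene, where the 5 kb upstream had 68.7%, 36.0%, 72.7% and 23.7%, which is 40.8 points. At the end of the gene, 11 CpGs over 610 bases had 79.4%, 15.6%, 87.7% and 13.2%.

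Gimap5 (chr6:48746197-48754210, plus strand) had the smallest gene body difference of the family, while its gene window (18.1 points) differed by more than that of Gimap6. Its start lay in a low stretch of 3572 bases in B cells and of 4616 bases in T cells. Behind that stretch both cell types were methylated, with introns at 93.1%, 87.3%, 96.0% and 82.2% and the 5 kb behind the gene at 96.3%, 92.2%, 95.7% and 93.3%. The 5 kb before its start had 65.2%, 40.0%, 69.0% and 35.1%, and that flank includes the end of Gimap1.

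Gimap3 (chr6:48764464-48770851, minus strand) held the longest run of consecutive CpGs that were lower in T cells by at least 30 points in both sexes, with 19 CpGs over 1876 bases (70.3%, 2.06%, 68.1% and 2.74%). This run covers the first part of the gene, and its introns had 56.1%, 7.07%, 53.0% and 7.66%. Its exons were methylated in both cell types (91.3%, 71.1%, 92.0% and 72.7%), and the 5 kb before it had 78.0%, 72.8%, 76.0% and 68.6%. That sum joins opposite differences, since its tile next to the start was 56.2 points higher in B cells and the last tile of the cluster 10.6 points lower at 85.0%, 94.1%, 82.7% and 94.8%.

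A scan in 1-kb tiles located the difference without regard to genes. Of 134 tiles, 98 had at least 5 CpGs and were tested, and 47 of these were called (48.0%). Of the 47, 46 were higher in B cells, a direction in which 2.36% of all 1530528 tiles were called, and 1 was lower, a direction in which 0.812% of all tiles were called. Both sexes differed by at least 20 points at 42 of the 47, and 12 differed by 50 points or more. CpGs in exons were held by 19 of the called tiles, 1 of them in an exon of the antisense gene Gimap1os and not of a member, 9 held CpGs in introns and none in exons, and 19 lay between genes. By the nearest member, 11 of 13 tiles were called at Gimap7, 7 of 12 each at Gimap4 and Gimap1, 6 of 10 at Gimap9, 7 of 19 at Gimap8, 5 of 14 at Gimap3 and 4 of 9 at Gimap6. At Gimap5 the count was 0 of 9, with differences between -2.05 and 11.6 points. Neighbouring tiles can share reads, and the tiles are no replicates of each other. Their p-values rest on a spread shared by all tiles.

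**Figure D5:**
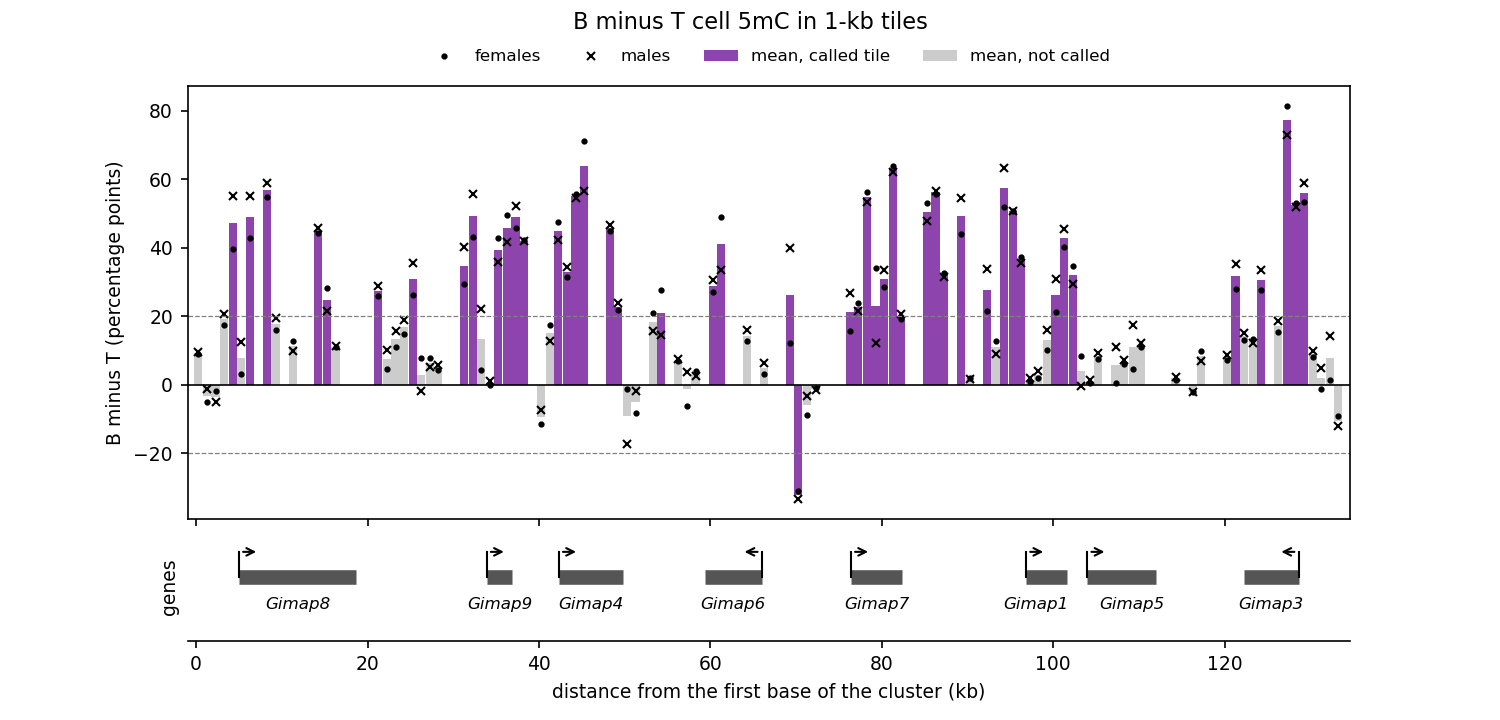
B minus T difference in percentage points of the 98 tested 1-kb tiles against the distance from the first base of the cluster in kb, with gene bodies below. Bars are means of both sexes, coloured where called, points are females, crosses are males and dashed lines mark 20 points. Of the called tiles 46 point up and 1, before Gimap6, points down.

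The 10 tiles with the largest difference were all higher in B cells. The first lay in an intron of Gimap3 (chr6:48769001-48770000), with 84.4%, 2.96%, 75.8% and 2.70% at 9 CpGs, a difference of 77.2 points (edgeR, adjusted p = 3.99e-58). The second lay in an intron of Gimap4 (chr6:48687001-48688000), with 71.8%, 0.680%, 60% and 3.31%, a difference of 63.9 points. The third lay over an exon of Gimap7 (chr6:48723001-48724000), with 68.9%, 4.92%, 66.4% and 4.38%, a difference of 63.0 points. In all 3 the T cells had under 5% and the B cells 60% or more. The others lay between genes before Gimap1 (57.6 points), in Gimap8 (56.8 points), behind Gimap7 (56.2 points), just before the start of Gimap3 (56.2 points), in Gimap4 (55.3 points), in Gimap7 (54.7 points) and over the start of Gimap3 (52.5 points). These 10 tiles rest on 65 reads or more in every library. They were picked for their differences in these same libraries.

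The 1 tile lower in B cells (chr6:48712001-48713000) lay between genes, 3776 bases before the start of Gimap6. Its levels were 19.4% (12.9% to 28.1%), 50.4% (41.8% to 58.9%), 10.4% (5.76% to 18.1%) and 43.9% (35.1% to 53.0%) at 8 CpGs, a difference of -32.2 points, and the intervals of B and T cells did not overlap. The tile rests on 96 reads or more in every library.

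A stretch of this tile (chr6:48712473-48712772, GRCm38, plus strand of the chromosome) is printed as an example of the DNA there, chosen for its number of CpGs and not for its difference, again with CpGs in capitals.
Before Gimap6, higher in T cells: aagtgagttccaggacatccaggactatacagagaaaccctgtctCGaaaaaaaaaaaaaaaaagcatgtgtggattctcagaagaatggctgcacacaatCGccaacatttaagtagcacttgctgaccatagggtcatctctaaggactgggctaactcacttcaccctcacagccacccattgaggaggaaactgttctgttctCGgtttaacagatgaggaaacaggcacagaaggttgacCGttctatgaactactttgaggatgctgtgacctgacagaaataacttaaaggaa

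The 4 CpGs of this stretch had 27.9%, 47.3%, 11.5% and 51.1%. The CpGs of the tile with the widest gaps, at positions 48712853 (26.3%, 81.8%, 21.1% and 83.3%) and 48712922 (23.1%, 74.1%, 0.0% and 75%), lie outside it. Repeats are marked in lower case in the reference, and they make up 26.1% of the bases of this tile and 25.8% of the cluster. At the 175 CpGs of the cluster in such repeats the levels were 83.4%, 67.3%, 83.0% and 62.9%, a difference of 18.1 points. At the other 915 CpGs they were 63.6%, 40.2%, 65.6% and 39.4%, a difference of 24.8 points. The direction was thus the same inside and outside repeats.

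Counted one by one, 265 of the 1090 CpGs (24.3%) were lower in T cells by at least 30 points in both sexes, beside 1.38% of all 18684786 CpGs listed in all 4 libraries. In the other direction there were 5 CpGs (0.459%), beside 0.597% of all CpGs. By gene window the share lower in T cells was 38.3% in Gimap4, 36.8% in Gimap9, 32.7% in Gimap7, 25.3% in Gimap8, 21.3% in Gimap1, 20.1% in Gimap3, 14.7% in Gimap6 and 11.9% in Gimap5. Of the 5 CpGs higher in T cells, 2 lay behind Gimap4 and 3 before Gimap6. At the last of these, position 48713017, the levels were 11.8%, 95%, 8.33% and 86.2% on 12 to 29 reads. CpGs share reads and are no replicates, so these are counts without a test.

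Among the 265 CpGs, 17 runs of at least 5 consecutive CpGs of this kind were found, with differences between 48.5 and 82.1 points. Whether they were more clustered than an even scatter was not tested. More CpGs of the cluster were high in B cells than in T cells. In B cells 652 CpGs (59.8%) were at 80% or more and 221 (20.3%) under 20%, against 352 (32.3%) and 408 (37.4%) in T cells. Of the 221 CpGs under 20% in B cells, 209 were also under 20% in T cells. Of the 408 under 20% in T cells, 126 were between 20% and 80% in B cells and 73 at 80% or more. Within the cluster the low CpGs of B cells were thus for the most part a subset of those of T cells. Neither the runs nor these classes were counted over the genome.

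Low stretches, joined from overlapping runs of 5 consecutive CpGs with a level under 30%, overlapped in the same way. A joined stretch as a whole can lie above 30% in a library. An example is the T cell stretch chr6:48711495-48712574, with 26.7%, 38.5%, 38.4% and 25.5%. B cells had 18, which covered 30316 bases and 274 CpGs, and all 18 overlapped a low stretch of T cells. T cells had 24, which covered 59242 bases and 526 CpGs, and 10 of them overlapped none of B cells. No such stretches were sought outside the cluster, so these counts have no share over the genome beside them. Overlap does not mean a lower level in T cells throughout. The low stretch of B cells before Gimap6, with 13 CpGs, had 28.7%, 52.6%, 18.5% and 50.5%, and that of 8 CpGs behind Gimap4 had 24.2%, 33.6%, 25.3% and 32.1%. With a level over 3 CpGs, 17 of 36 stretches of T cells and 1 of 32 of B cells stood alone.

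The same fits compared females with males. None of the 8 gene windows, 8 promoters or 98 tiles was called between the sexes (edgeR, 0 called), beside 0.153% of all windows, 1.99% of all promoters and 0.0868% of all tiles. These shares count regions of the X chromosome too. All 33 windows and 408 promoters called were higher in females, as were 1248 of 1329 tiles. How many of them lie on the X was not counted. With edgeR an unadjusted p under 0.05 was reached by 0 windows, 0 promoters and 2 tiles. Over the genome 2455 of 21553 windows, 2103 of 20501 promoters and 78643 of 1530528 tiles reached it. With limma the counts in the cluster were 0, 1 and 1, beside 2134, 1706 and 85921. The B minus T difference itself was not called as different between the sexes in any window, promoter or tile (0 called), beside 0.0% of all windows, 0.0% of all promoters and 0.000849% of all tiles. There an unadjusted p under 0.05 was reached by 0 windows, 2 promoters and 3 tiles with edgeR, and by 2, 2 and 5 with limma. The 2 promoters were those of Gimap8, with a difference of 30 points in females and 52.0 points in males (edgeR, unadjusted p = 0.0197), and of Gimap9, with 3.47 and 14.5 points (edgeR, unadjusted p = 0.0303). With every CpG weighted equally the sexes lay closer, at 30.8 and 39.6 points for the promoter of Gimap8 and 5.79 and 8.17 points for that of Gimap9. Both have an adjusted p of 1 with edgeR.

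Other genes with related roles were taken from lists for comparison, read at promoters. Of 8 genes of lymphocyte survival, the family's best known setting, 1 was called. It was Il7r, the receptor chain for the survival cytokine IL-7, with 47.5%, 25.0%, 43.3% and 19.9% (22.9 points), and the median difference of the list was 1.14 points. Of 9 other immune GTPases, 8 could be tested and 1 was called. It was Gbp6, an interferon-induced guanylate-binding protein, with 72.3%, 26.8%, 80.8% and 14.4% at 6 CpGs (56.0 points), and the median of the list was 6.91 points. Over all promoters the median difference was 0.970 points, and 0.956% were called higher in B cells, as Il7r and Gbp6 were. The genes elsewhere whose gene windows came nearest to the 4 levels of the whole cluster were Tnfrsf18, a costimulatory receptor of T cells (68.0%, 42.4%, 68.1% and 43.8%), Gpr146 and Vamp1. Their mean absolute distances over the 4 libraries were 1.13, 1.42 and 1.54 points.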

How the data were processed

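The data are whole genome oxidative bisulfite libraries of B and T lymphocytes from both sexes. The authors deposited, for each CpG with at least 5 reads, the methylation level as a fraction rounded up to 3 decimals and the read count. Per the submitters' processing notes, Trim Galore, FastQC, Bismark 0.13.1 and mm10 were used, and removal of duplicate reads is not given in the sources used here. The deposited files hold 1 line per CpG, and how the strands were joined is not given in the sources used here. Fraction times count, cut to the whole number below it, was taken as the number of methylated reads, and this gave back 100% of the deposited levels. Positions counted from 0 and were shifted by 1, after which 100% of those on chromosome 6 lay on a reference CG.

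Genes came from GENCODE mouse release 21. A further annotated entry, Gm28053, runs through Gimap7 to Gimap5 and was not taken as a member or neighbour. It was also left out when CpGs were classed as exonic, intronic or between genes. Some CpGs and tiles given as between genes thus lie inside it. Each region's reads were added up over the CpGs that every library lists, for regions with at least 5 such CpGs and 20 reads in every library. The main test was edgeR (version 4.0.16, R 4.3.3) by quasi-likelihood on methylated and unmethylated counts. Its design held the 4 libraries, and on methylation the cell type and the sex, or the contrast of female B and male T cells against the others where the sex would stand. The common dispersion came from 20000 regions. P-values were adjusted by Benjamini-Hochberg over every region of the same kind, and a call also needed 20 points. limma 3.58.1 on arcsine square root levels and the other settings of the closing section were alternatives. Intervals are 95% Wilson intervals (scipy 1.17.1). The fits were tested on simulated data. Named were all 8 members, the 10 called tiles with the largest difference, the called neighbours and list promoters, and the 3 nearest genes by level. The tile lower in B cells was named as the only one of its direction. The neighbours and lists that were not called are named for orientation. The members and lists were chosen with earlier results of these data known. The distances from gene starts and the split by repeats were added after the data were seen. Whether a file holds 1 or both samples of its group is not known. Each sample pooled several mice, and with 1 file per group p-values concern these libraries only. The term for sex takes out the mean difference between the sexes, which leaves little spread between libraries to a single region. For promoters and tiles the spread used was wholly that shared by all regions of the kind, so their p-values do not measure the spread of a single region. Reads from similar stretches of the family may be placed on the wrong member, which was not tested. The sequence of 1 further stretch is not reported here.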

Additional observations from a re-analysis of the deposited data

How the results depend on the processing

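The counts of called Gimap regions were recomputed under 13 or fewer alternatives each. Without the minimum of 20 points, 8 of 8 gene windows were called, beside 7474 of all 21553 in either direction. So were 7 of 8 promoters, and 7 of 16 promoters of the survival and GTPase lists in place of 2, beside 4070 of all 20501 promoters. Of the tiles 71 of 98 were called (68 higher and 3 lower in B cells, beside 142827 of all 1530528 tiles in either direction). With 5-kb tiles 16 of 28 were called, beside 6257 of all 501029. With 50 points in both sexes in place of 30, 151 CpGs remained of 270 in both directions (147 lower and 4 higher in T cells, beside 0.643% and 0.255% of all CpGs). With the level over 3 CpGs, T cells alone had 17 low stretches in place of 10, and B cells had 32 in place of 18. Leaving out each library in turn leaves 1 library of a cell type, so no counts of calls are given for these fits. The window of Gimap5 then differed by 20.1 points without the female B library. Promoter calls were lost over the whole genome as well as in the family, and the cause was not tested. One of the 3 lower tiles is the last of the cluster (-10.6 points, edgeR, adjusted p = 1.58e-07). With 500 bases on either side 3 of 7 promoters were called (Gimap8 at 28.0, Gimap4 at 44.9 and Gimap7 at 21.3 points), beside 185 higher in B cells of all 19029, and Gimap3 had under 5 CpGs there and was not tested. There Gimap9 moved to 1.73 and Gimap1 to 0.21 points, and Gimap5 turned to -0.65 points and passed the test under neither width. With 10 kb on either side the window of Gimap8 lost its call (19.1 points), that of Gimap5 gained one (20.1 points) and that of Gimap3 moved from 18.2 to 6.23 points. The counts of called windows, promoters, gene bodies and tiles under limma, and those of windows, promoters and tiles without a term for sex and with every listed CpG, were those of the main fit. At least 1 CpG per region, added after the data were seen, left the windows and promoters at 5 and 4. It gave 58 tiles, beside 58800 of all 2416724 in either direction, where the main fit called 48493 of 1530528. The gene body fits without each library and under limma were added after the data were seen too. The unweighted mean of CpG levels put 36 of 96 levels outside their intervals, by up to 12.1 points (Gimap1 body, male T cells). It also put the B minus T difference of the Gimap7 promoter at 19.3 and of the Gimap1 gene body at 17.4 points, below the minimum of a call. B and T cells could not be paired by sample because the groups share no replicate number and each has 1 file. The term for sex matched them by sex alone. With medians of 14 to 17 reads per CpG, the level of most single CpGs is known only roughly.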
